A study of Mus musculus with 6 samples.

Results

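The 36 genes described here were 20 genes of cytosolic aminoacyl-tRNA synthetases and 16 genes of the ATF4 type of amino acid stress response. They were chosen by name, from the symbols of the deposited count matrix, and each had to have, in 3 or more of the 6 libraries, a level of 1 CPM (counts scaled to a common library total). All 36 did, as did 15009 of the 26814 gene symbols in the matrix as a whole. The requirement removed none of them, since the lowest value of any of the 36 in any library was 2.51 CPM (Pycr1 in KO1) and the lowest count was 49.

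RNA came from the dissected top lip of adult female mice (2 to 6 months) on the C57BL/6J background, and the RNA of each mouse gave 1 mRNA library. The 3 wild type libraries are WT1, WT2 and WT3. The 3 libraries labelled Gtf2ird1-KO are here KO1, KO2 and KO3. They came from mice with the Gtf2ird1tm1Hrd allele, a model of the loss of a transcription factor gene deleted in Williams-Beuren syndrome. The paper calls these mice knockout, and its background describes homozygous null mice with this allele. Its methods do not state the zygosity of the mice used. The lip is a mixture of epidermis, dermis and muscle, so in these bulk libraries fewer cells of a type and less RNA per cell cannot be told apart.

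A synthetase joins one amino acid to its transfer RNA, and the full set of these enzymes supplies every ribosome with building blocks. When amino acids run short or unfolded proteins collect in the endoplasmic reticulum, kinases phosphorylate the initiation factor eIF2, most translation slows, and the messenger of the transcription factor ATF4 is translated more. ATF4 then raises the transcription of genes for amino acid synthesis and uptake and of many synthetases. Growing cells also use the synthetases and the serine pathway heavily.

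Total counts lay between 20164081 (KO1) and 29491767 (KO2) per library. The RNA of the targeted gene was higher, not lower, in the libraries labelled KO. Gtf2ird1 had 78.2, 70.2 and 70.7 CPM in WT1 to WT3 and 166, 162 and 144 CPM in KO1 to KO3 (log2 fold change 1.11, SE 0.13, adjusted p = 0.0018). The paper's background cites work in which GTF2IRD1 protein binds the promoter of its own gene and regulates it. Whether this bears on these counts was not tested. The study's methods state that genotypes were checked again in tail biopsies. Counts per gene do not separate reads of a mutated allele from those of an intact one, so they cannot show whether a label is right. Each direction below is that of the libraries labelled KO. Fold changes, their standard errors and adjusted p-values are from edgeR's quasi-likelihood F test with Benjamini-Hochberg adjustment over the 15009 genes tested, and a gene counts as called with an adjusted p under 0.05. KO3 stood apart: with all libraries 657 genes were called higher and 314 lower, and without KO3 2496 and 2395.

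In the libraries labelled KO, 6 of the 20 cytosolic synthetases rose and 0 fell, where 4.38% of all genes tested rose and 2.09% fell. The risers were Iars, Rars, Farsb, Hars, Nars and Qars, and their fold changes ran from 1.504 (Qars) to 6.12 (Iars). The median log2 fold change of the 20 was 0.46, and that of all genes tested was -0.02. At an unadjusted p under 0.05, 11 were higher and 0 lower, beside 13.5% and 16% of all genes. No tool found a lower synthetase: the exact test of edgeR and the Wald test of DESeq2 each called 10 higher and 0 lower, and limma-voom called 6 higher and 0 lower. These tools called 7.76%, 8.93% and 4.08% of all genes higher and 7.15%, 5.31% and 2.21% lower. In 16 of the 20 every library labelled KO lay above every WT library, which was the case for 13.5% of all genes.

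**Figure D1:**
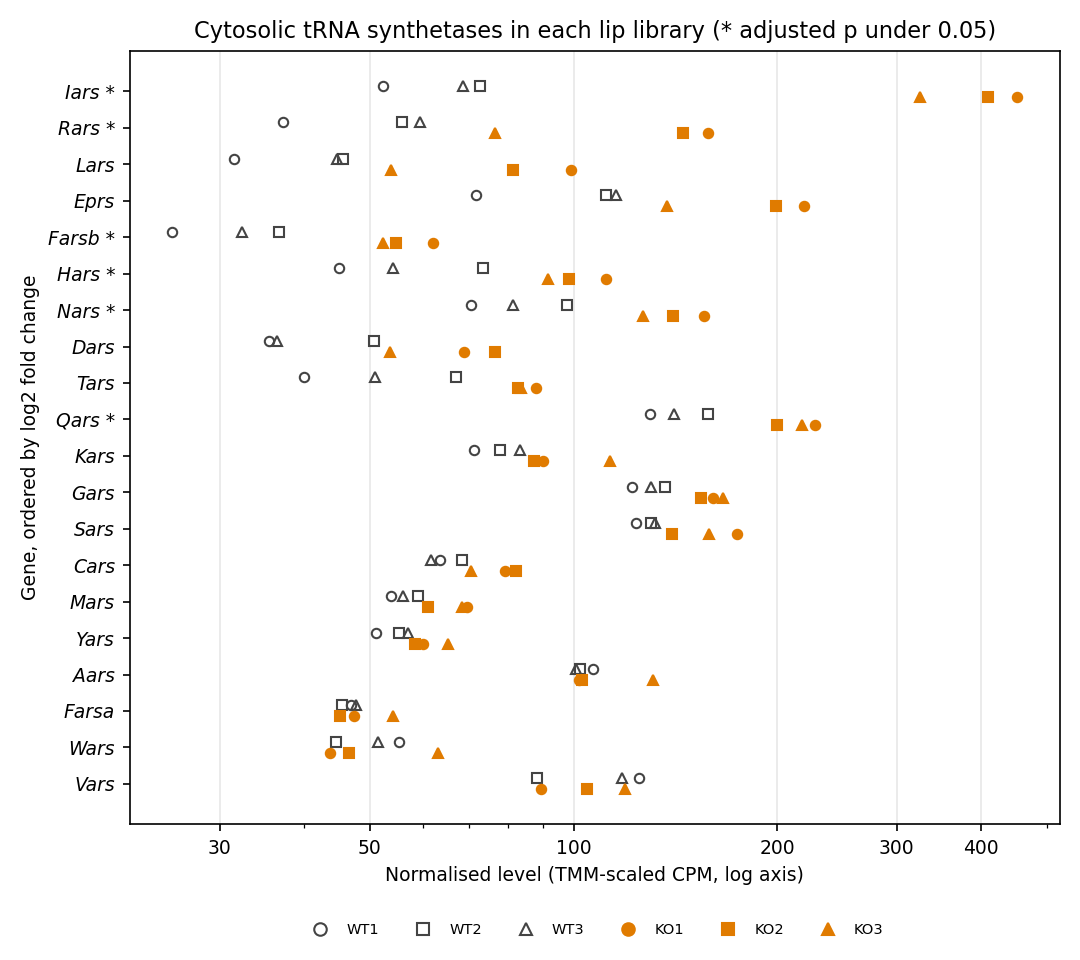
Level of each of the 20 cytosolic synthetases in each library (TMM-scaled CPM, log axis), with open symbols for the 3 WT and filled symbols for the 3 libraries labelled KO, and an asterisk for an adjusted p under 0.05. Iars stands far to the right in KO1, KO2 and KO3, and the open and filled symbols of Aars, Farsa, Wars and Vars overlap.

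Iars, the isoleucine enzyme (chromosome 13, 49682100 to 49734267, plus strand), had 52.4 CPM in WT1, 72.8 in WT2 and 68.8 in WT3, against 452 in KO1, 409 in KO2 and 325 in KO3. The lowest library labelled KO was thus several times the highest WT library. It was 6.12-fold higher (log2 fold change 2.61, SE 0.19, adjusted p = 0.000171) and ranked 64th by p among the genes tested. It was called without any one of the 6 libraries in turn, with log2 fold changes between 2.48 and 2.77.

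Rars, the arginine enzyme (chromosome 11, 35808381 to 35834506, minus strand), had 37.2, 55.8 and 59.2 CPM in WT1 to WT3 and 158, 145 and 76.5 in KO1 to KO3. The groups did not overlap, but KO3 lay nearer to WT3 than to the other libraries labelled KO. The log2 fold change was 1.32 (SE 0.29, adjusted p = 0.0385), and 1.58 without KO3 (adjusted p = 0.000911). Adjusted p-values of Rars ran up to 0.151 when another library was omitted, and from 0.000112 to 0.0663 over the other tools and settings.

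Farsb, the beta subunit of the phenylalanine enzyme (chromosome 1, 78417975 to 78488897, minus strand), had 25.5, 36.7 and 32.4 CPM in WT1 to WT3 and 62.1, 54.7 and 52.2 in KO1 to KO3. All libraries labelled KO were above all WT libraries, with KO1 at the top (log2 fold change 0.84, SE 0.17, adjusted p = 0.0266). The alpha subunit Farsa, with which it forms one enzyme, had 46.9, 45.6 and 47.8 CPM in WT1 to WT3 and 47.4, 45.2 and 54.1 in KO1 to KO3, and the groups overlapped (log2 fold change 0.07, SE 0.13, adjusted p = 0.755). Scaled to exon length, the ratio of Farsb to Farsa was 0.943, 1.39 and 1.17 in WT1 to WT3 and 2.27, 2.096 and 1.67 in KO1 to KO3. The ratios of the groups did not overlap. Their size depends on the length used. Summed exons are 4538 bases in Farsa and 2620 in Farsb, and the longest protein-coding transcripts 1826 and 2036 bases. Scaled to those transcripts, Farsa ranked above Farsb in WT (16th and 27th of the genes described here). In the libraries labelled KO, Farsb ranked above Farsa (18th and 20th). The ratios therefore do not show whether the subunits were balanced in either group. Of the exon length of Farsb, 9.47% overlaps Sgpp2 on the opposite strand, and reads there cannot be assigned with certainty because the strand setting of the counting is not given in the sources used here.

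Nars, the asparagine enzyme (chromosome 18), had 70.6, 97.7 and 81.4 CPM in WT1 to WT3 and 156, 140 and 126 in KO1 to KO3. Hars, the histidine enzyme (also chromosome 18), had 45.0, 73.5 and 54.1 CPM in WT1 to WT3 and 111, 98.5 and 91.6 in KO1 to KO3. Neither gene had overlapping groups, and in both KO1 was the highest and KO3 the lowest of the libraries labelled KO. The log2 fold changes were 0.76 for Nars (SE 0.16, adjusted p = 0.0325) and 0.81 for Hars (SE 0.19, adjusted p = 0.0485). Of the exon length of Hars, 7.97% overlaps its mitochondrial relative Hars2 on the opposite strand.

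Qars, the glutamine enzyme (chromosome 9, 108507706 to 108515941, plus strand), had the smallest change of those called. Its levels were 130, 158 and 141 CPM in WT1 to WT3 and 227, 199 and 218 in KO1 to KO3, again without overlap (log2 fold change 0.59, SE 0.13, adjusted p = 0.0411). Here KO2, not KO3, was the lowest library labelled KO.

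The next 4 synthetases by p also lay above WT in every library labelled KO but missed the threshold. Lars, the leucine enzyme, had 31.5, 45.7 and 44.7 CPM in WT1 to WT3 and 99.1, 81.3 and 53.8 in KO1 to KO3 (log2 fold change 0.94, SE 0.24, adjusted p = 0.0608). Eprs, which charges both glutamate and proline, had 71.6, 112 and 116 CPM in WT1 to WT3 and 219, 199 and 137 in KO1 to KO3 (log2 fold change 0.89, SE 0.24, adjusted p = 0.0638). In both genes, as in Rars, KO3 was well under KO1 and KO2. Tars, the threonine enzyme, had 40.0, 67.1 and 50.9 CPM in WT1 to WT3 and 88.1, 82.7 and 83.5 in KO1 to KO3 (log2 fold change 0.69, SE 0.19, adjusted p = 0.07). Dars, the aspartate enzyme, had 35.5, 50.8 and 36.4 CPM in WT1 to WT3 and 69.0, 76.7 and 53.6 in KO1 to KO3 (log2 fold change 0.70, SE 0.20, adjusted p = 0.0724). In these 4 and the 6 called genes WT1 was the lowest of the WT libraries.

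Which of these 10 passed turned on single libraries. Without KO3 all 10 were called, beside 16.9% of all genes called higher. Without WT2 6 were called (Iars, Farsb, Nars, Qars, Hars and Tars, beside 3.22% of all genes). Only Iars was called without WT1 (2.12% of all genes), without WT3 (2.17%), without KO1 (1.98%) or without KO2 (1.41%). The median log2 fold change of the 20 stayed between 0.39 and 0.57 over these 6 fits. Scaling by library size alone in place of TMM left 3 called (3.84% of all genes). With DESeq2's size factors 6 were called (4.41% of all genes), with no filter 8 (3.41%), with at least 10 counts in every library 5 (3.24%), with the replicate number as a block 2 (3.86%), and at an adjusted p under 0.1 10 (8.32%).

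The other 10 synthetases had log2 fold changes of 0.32 or less. Gars (glycine), Sars (serine), Kars (lysine), Cars (cysteine), Mars (methionine) and Yars (tyrosine) had each library labelled KO above each WT library, with log2 fold changes from 0.17 (Yars, SE 0.12) to 0.32 (Kars, SE 0.15) and adjusted p-values from 0.132 (Gars) to 0.378 (Yars). Aars (alanine, log2 fold change 0.12), Farsa, Wars (tryptophan, 0.02) and Vars (valine, -0.08) overlapped between the groups. For Vars the levels were 125, 88.2 and 118 CPM in WT1 to WT3 and 89.5, 105 and 119 in KO1 to KO3, so both groups covered nearly the same range. Aars shares 14.29% of its exon length with Exosc6 on the same strand, Cars shares 3.21% with Gm15580 on the opposite strand, and Kars has a processed pseudogene, Kars-ps1, so reads of these genes are less certain.

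**Figure D2:**
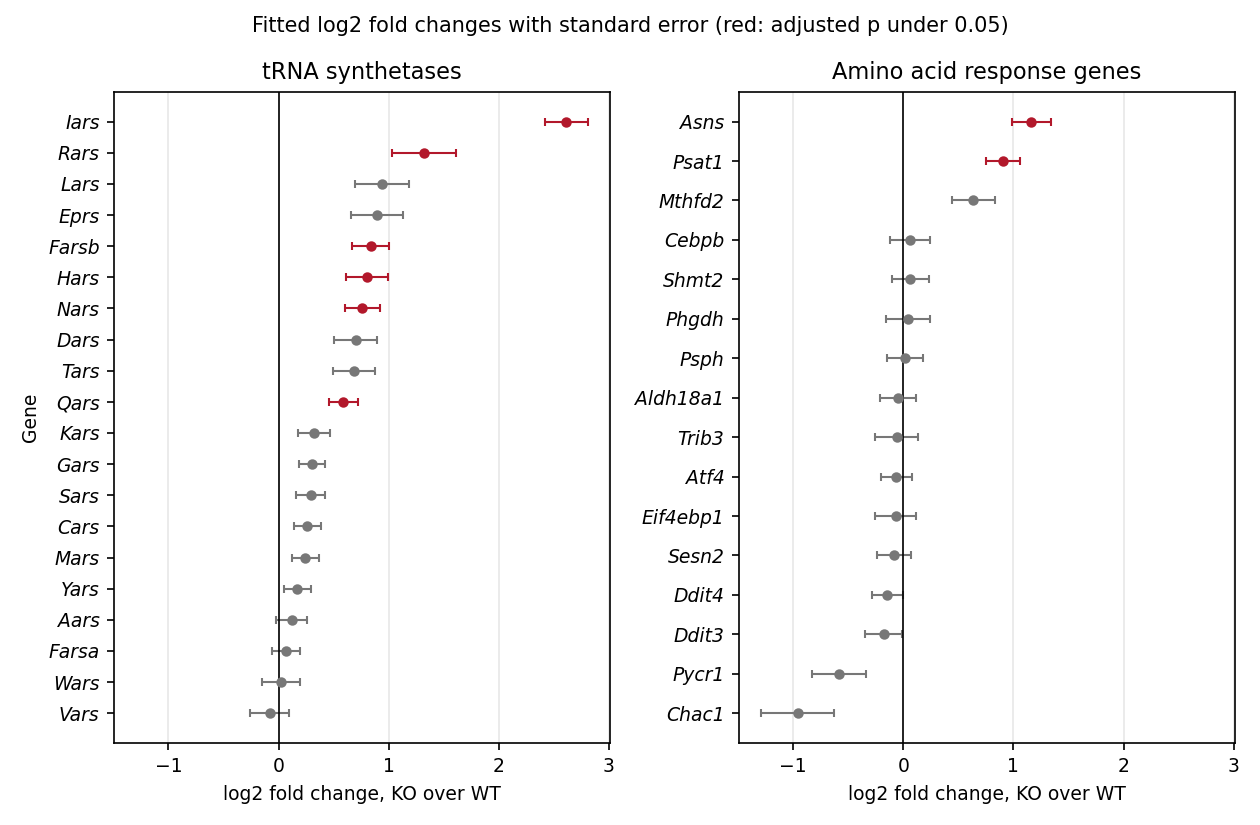
Fitted log2 fold change of the libraries labelled KO over WT, with the standard error as a bar, for the 20 synthetases (left) and the 16 amino acid response genes (right), called genes in red. On the left 19 of 20 points lie above 0, with Iars at 2.61, and on the right most points lie close to 0, with Asns at 1.16 and Chac1 at -0.96.

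The fold changes varied within the set. Of the 8 synthetases that are held together in the multisynthetase complex (Eprs, Iars, Lars, Mars, Qars, Rars, Kars and Dars), 3 were called and all 8 had the libraries labelled KO above WT, with a median log2 fold change of 0.80. Of the 12 outside it, 3 were called, 8 had the libraries labelled KO above WT, and the median was 0.28. The difference between these 2 groups of genes was not tested. The structural classes of synthetase gave 3 called of 10 each, with medians of 0.43 for class I and 0.50 for class II. The 3 scaffold proteins of the complex, Aimp1 (log2 fold change 0.54, SE 0.19, adjusted p = 0.108), Aimp2 (0.17, SE 0.15, adjusted p = 0.467) and Eef1e1 (0.25, SE 0.16, adjusted p = 0.318), were not called, though 1 had an unadjusted p under 0.05 and DESeq2 called 1.

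Summed over the 20 genes, synthetase reads came to 1358, 1577 and 1522 CPM in WT1 to WT3 and to 2558, 2369 and 2227 CPM in KO1 to KO3, a ratio of means of 1.61. Every library labelled KO carried more than every WT library. Iars took 4.33 ± 0.41% of that sum in WT and 16.5 ± 1.68% in the libraries labelled KO (mean ± SD, n = 3 mice each). With Iars left out, the ratio for the other 19 was 1.40. It was 1.64 for the other 7 of the complex and 1.27 for the 12 outside it.

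**Figure D3:**
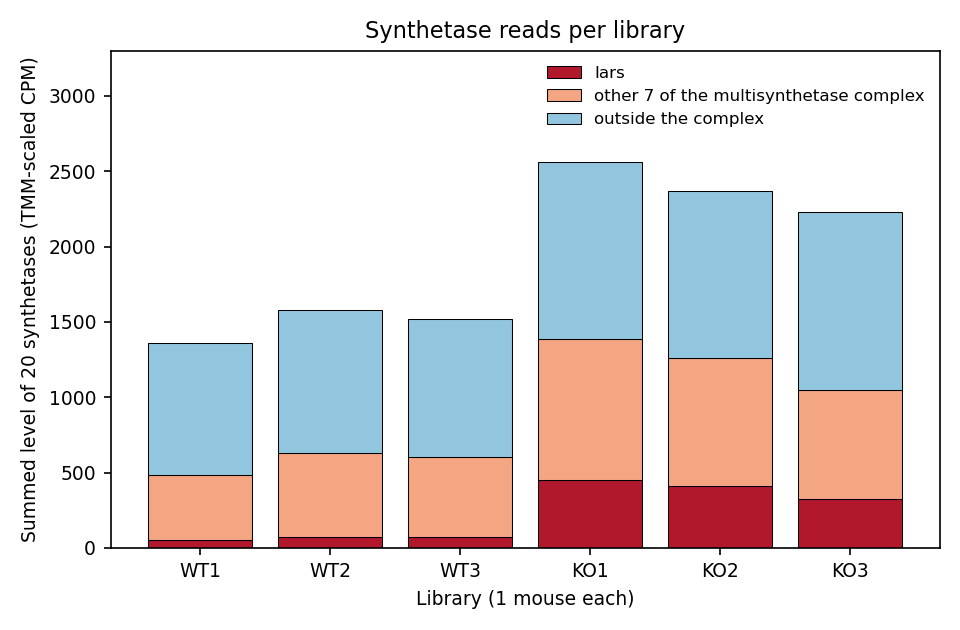
Summed level of the 20 synthetases in each library (TMM-scaled CPM, bars from 0), split into Iars, the other 7 of the multisynthetase complex and the 12 outside it. The 3 libraries labelled KO reach 2227 to 2558 and the 3 WT libraries 1358 to 1577, and the Iars share grows most.

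Levels between genes were compared per kilobase of exon (RPKM). In WT, Atf4 was the highest of the 36 (73.2 RPKM) and Chac1 the second (57.9 RPKM), while Iars was 20th (12.3 RPKM). In the libraries labelled KO, Iars was the highest (75.0 RPKM), next to Atf4 (70.1 RPKM), and Chac1 was 13th (29.7 RPKM). The spread over mice does not separate Iars from Atf4 in that order, and with the length of the longest protein-coding transcript in place of all exons Iars went from 28th to 2nd and Chac1 from 2nd to 17th. Pycr1 was the lowest in both groups (1.27 and 0.842 RPKM).

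Most of the amino acid response genes were not called. Of the 16, 2 rose (Asns and Psat1) and 0 fell, beside the 4.38% and 2.09% of all genes, and their median log2 fold change was -0.05. At an unadjusted p under 0.05, 3 were higher and 2 lower, beside 13.5% and 16% of all genes. DESeq2's Wald test called 3 higher and 1 lower (8.93% and 5.31% of all genes), edgeR's exact test 2 higher and 1 lower (7.76% and 7.15%), and limma-voom 2 higher and 0 lower (4.08% and 2.21%). In 3 of the 16 all libraries labelled KO lay above WT and in 2 all lay below, where the shares over all genes were 13.5% and 18.1%. The groups overlapped in 11.

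**Figure D4:**
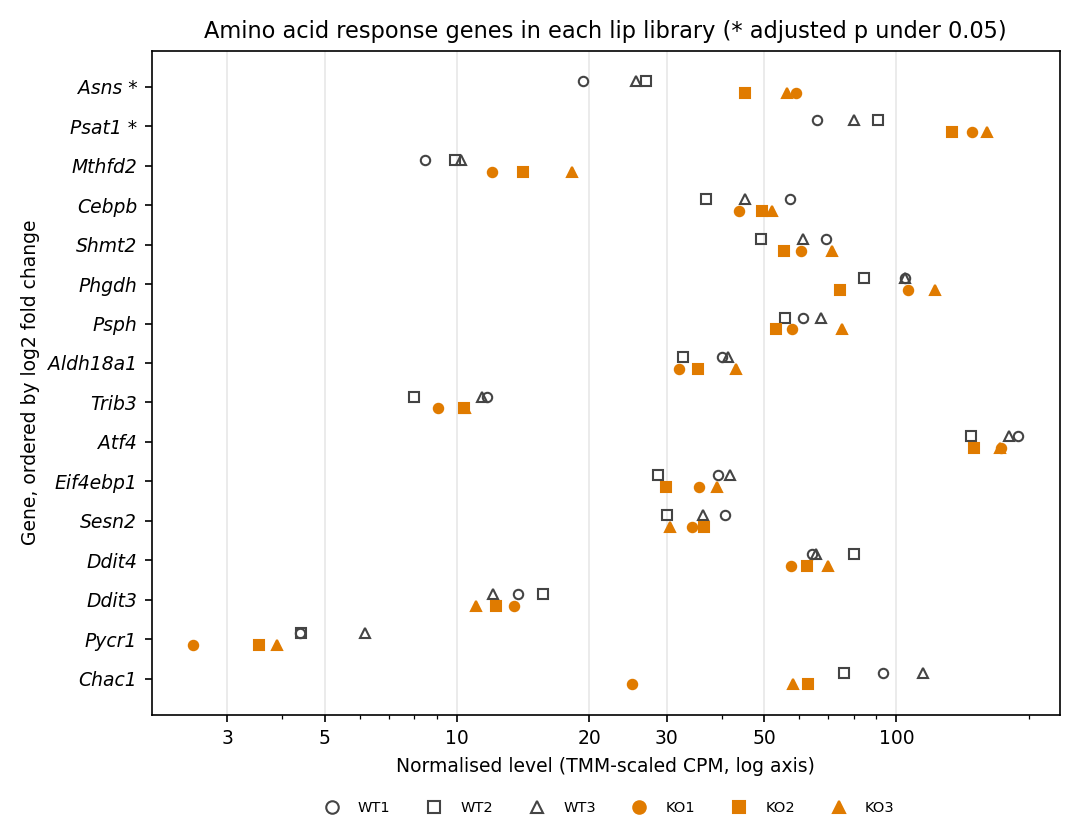
Level of each of the 16 amino acid response genes in each library (TMM-scaled CPM, log axis), symbols as for the synthetases. Asns, Psat1 and Mthfd2 have KO1 to KO3 to the right of the WT libraries, Chac1 and Pycr1 have them to the left, and the other 11 genes overlap.

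Atf4 itself, the factor at the centre of the response, had 190, 148 and 181 CPM in WT1 to WT3 and 173, 150 and 172 in KO1 to KO3. The libraries labelled KO lay inside the WT range (log2 fold change -0.06, SE 0.14, adjusted p = 0.796). ATF4 is controlled largely by translation, so its RNA level does not measure its protein. Its partner Cebpb, a bZIP factor, had a log2 fold change of 0.06 (SE 0.18, adjusted p = 0.84), with 20.74% of its exon length shared with Tmem189 on the opposite strand.

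Asns, which makes asparagine (chromosome 6, 7675169 to 7693254, minus strand), had 19.3, 26.9 and 25.6 CPM in WT1 to WT3 and 59.0, 45.3 and 56.2 in KO1 to KO3. The groups were well apart, and Asns rose 2.24-fold (log2 fold change 1.16, SE 0.18, adjusted p = 0.00817). It was called in all 6 fits that left out a library, with log2 fold changes between 1.03 and 1.32.

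Psat1, the aminotransferase of serine synthesis (chromosome 19, 15904678 to 15947337, minus strand), had 66.0, 90.8 and 80.2 CPM in WT1 to WT3 and 149, 134 and 161 in KO1 to KO3. It rose 1.87-fold without overlap (log2 fold change 0.90, SE 0.16, adjusted p = 0.0146). The call was lost without WT1 or WT3, each of which left 1 response gene called higher. The enzymes before and after Psat1 in the same pathway were not called. Phgdh, the first enzyme, had 105, 84.5 and 104 CPM in WT1 to WT3 and 106, 74.2 and 122 in KO1 to KO3, and the groups overlapped (log2 fold change 0.04, SE 0.20, adjusted p = 0.901). Psph, the last, had a log2 fold change of 0.02 (SE 0.16, adjusted p = 0.957). Phgdh has a processed pseudogene (Phgdh-ps1), and 10.44% of the exon length of Psph overlaps Cct6a on the opposite strand.

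The mitochondrial one-carbon enzymes take up the serine that this pathway makes. Mthfd2 had 8.46, 9.91 and 10.2 CPM in WT1 to WT3 and 12.02, 14.1 and 18.2 in KO1 to KO3, all above WT, with the highest value in KO3 (log2 fold change 0.64, SE 0.20, adjusted p = 0.0862). Shmt2 overlapped between the groups (log2 fold change 0.06, SE 0.17, adjusted p = 0.828). In proline synthesis, Aldh18a1 overlapped as well (log2 fold change -0.05, SE 0.16, adjusted p = 0.867). Pycr1, the last enzyme of that route, had 4.39, 4.42 and 6.16 CPM in WT1 to WT3 and 2.51, 3.55 and 3.89 in KO1 to KO3, all below WT, at a low level (log2 fold change -0.58, SE 0.24, adjusted p = 0.157).

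Chac1, an enzyme that degrades glutathione and one of the steepest ATF4 targets in stressed cells, went the other way from Asns. Its levels were 93.2, 75.9 and 115 CPM in WT1 to WT3 and 25.0, 62.8 and 58.2 in KO1 to KO3. Every library labelled KO was below every WT library, with KO1 lowest by a wide margin (log2 fold change -0.96, SE 0.33, adjusted p = 0.105). It was called lower by edgeR's exact test (adjusted p = 0.0159), by DESeq2, and by the quasi-likelihood test without KO3 (log2 fold change -1.10, adjusted p = 0.0338), in which 1 response gene was thus lower beside 16.2% of all genes. Over the fits that omitted a library its adjusted p ran from 0.0338 to 0.291, and over the other tools and settings from 0.0159 to 0.135.

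The remaining stress genes overlapped between the groups. Ddit3, the stress transcription factor CHOP, had 13.8, 15.7 and 12.1 CPM in WT1 to WT3 and 13.5, 12.3 and 11.0 in KO1 to KO3 (log2 fold change -0.18, SE 0.17, adjusted p = 0.501). Trib3, a pseudokinase that holds ATF4 back, had 11.7, 7.99 and 11.4 CPM in WT1 to WT3 and 9.06, 10.4 and 10.4 in KO1 to KO3 (log2 fold change -0.06, SE 0.19, adjusted p = 0.859). Both groups thus covered similar ranges. Ddit4 (log2 fold change -0.14, SE 0.14, adjusted p = 0.523), Sesn2 (-0.09, SE 0.16, adjusted p = 0.741) and Eif4ebp1 (-0.07, SE 0.18, adjusted p = 0.819) restrain mTORC1 or the cap-binding step of translation that it controls. That these genes missed the threshold does not show that their levels were the same. Of the exon length of Ddit3, 4.73% overlaps Mars and Gm4189 on the opposite strand, and 6.13% a second model of Ddit3 on the same strand.

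ATF4 binds with a C/EBP partner to the C/EBP-ATF response element, whose core letters were looked for in the promoters. The response genes were listed as ATF4-type genes, so a larger share among them than among all genes may follow from the choice of list. The letters TGATGNAA were searched on both strands from 250 bases before to 50 bases after the RefSeq start (GRCm38.p6). They were in 3.969% of all 32851 promoters and, counted per gene, in 4.511% of 27025 genes, against 5 of the 13 synthetases with an entry (Aars, Gars, Iars, Tars and Yars) and 4 of the 15 response genes with one (Asns, Chac1, Pycr1 and Trib3). Cars, Hars, Lars, Nars, Rars, Vars, Wars and Eif4ebp1 had no entry. The stretches of the called genes and response genes that hold the core are shown 5′ to 3′ on the strand of the gene, with the core in capitals (TTNCATCA is the same core read from the other strand).
Iars: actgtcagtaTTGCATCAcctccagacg
Asns: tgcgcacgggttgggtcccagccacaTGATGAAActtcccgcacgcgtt
Chac1: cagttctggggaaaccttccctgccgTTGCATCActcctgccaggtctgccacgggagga
Pycr1: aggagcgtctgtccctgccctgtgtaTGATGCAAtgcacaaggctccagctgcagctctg
Trib3: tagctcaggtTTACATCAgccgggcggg
The stretches lie at chr13:49682127-49682154 (Iars, plus strand), chr6:7693210-7693258 (Asns, minus strand), chr2:119351023-119351082 (Chac1, plus strand), chr11:120643818-120643877 (Pycr1, minus strand) and chr2:152344029-152344056 (Trib3, minus strand). The core began 23 bases before the start in Asns, 103 in Pycr1 and 193 in Chac1, and at base 8 after it in Iars and base 15 in Trib3.

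Of the 9 genes with the core, Iars and Asns rose, with log2 fold changes of 2.61 and 1.16, and the other 7 were not called. Tars (0.69), Gars (0.31), Yars (0.17) and Aars (0.12) had positive log2 fold changes, and Chac1 (-0.96), Pycr1 (-0.58) and Trib3 (-0.06) negative ones. Of the 8 called genes of the 36, 5 had a promoter entry and 2 held the core. Of the 28 not called, 23 had an entry and 7 held it. A match of these letters is a description of the window and not a binding site.

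Upstream of ATF4 stand the eIF2 kinases. Eif2ak2 (PKR), which senses double-stranded RNA and is itself induced by interferon, had 7.22, 9.69 and 9.71 CPM in WT1 to WT3 and 33.9, 59.2 and 28.5 in KO1 to KO3, without overlap. It was 4.57-fold higher (log2 fold change 2.19, SE 0.29, adjusted p = 0.00384). The heme-regulated kinase Eif2ak1 (log2 fold change 0.14, adjusted p = 0.505), the endoplasmic reticulum kinase Eif2ak3 (-0.13, adjusted p = 0.516) and the uncharged-tRNA sensor Eif2ak4, or GCN2 (0.11, adjusted p = 0.727), were not called. None of the 8 subunits of eIF2 and its exchange factor eIF2B was called by the quasi-likelihood test or limma-voom, while 3 were higher at an unadjusted p under 0.05 and the exact test and DESeq2 called 2 and 3 higher. Eif2s1, the subunit that the kinases phosphorylate, had 36.5, 60.9 and 43.5 CPM in WT1 to WT3 and 101, 95.8 and 68.2 in KO1 to KO3, all above WT (log2 fold change 0.91, SE 0.23, adjusted p = 0.0543).

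Other genes of the pathway, listed by their known roles, were mostly not called, where 4.38% of all genes rose and 2.09% fell. Of 15 further ATF4-type targets tested, 1 rose and 0 fell (4 were lower at an unadjusted p under 0.05, and the exact test, DESeq2 and limma-voom called 1, 1 and 0 lower). The riser was Pmaip1, the apoptosis gene Noxa, with 2.36, 2.76 and 1.93 CPM in WT1 to WT3 and 5.48, 4.73 and 5.396 in KO1 to KO3 (log2 fold change 1.14, SE 0.21, adjusted p = 0.0192). Of 9 amino acid transporters, 0 rose and 1 fell (1 was higher at an unadjusted p under 0.05, and the exact test, DESeq2 and limma-voom called 1, 1 and 0 higher). The one that fell was Slc43a1, a carrier of neutral amino acids (log2 fold change -0.84, SE 0.20, adjusted p = 0.0442). Slc7a11, the cystine carrier, had 25.0, 24.9 and 24.5 CPM in WT1 to WT3 and 93.3, 51.5 and 26.3 in KO1 to KO3, so its value in KO3 was close to WT (log2 fold change 1.20, SE 0.39, adjusted p = 0.0925). Of 12 other enzymes of serine, one-carbon and proline metabolism, only Gldc, of the glycine cleavage system, was called, and it fell (log2 fold change -0.89, SE 0.21, adjusted p = 0.0438). Without KO3 the calls were 3 higher and 3 lower among the ATF4-type targets, 1 higher and 2 lower among the transporters, and 3 higher and 0 lower among the eIF2 and eIF2B subunits, beside 16.9% of all genes called higher and 16.2% lower in that fit.

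The mitochondrial synthetases, most of which charge the transfer RNAs of the organelle from separate genes, were listed together with Gatb, Gatc and Qrsl1. These are subunits of an amidotransferase and not synthetases. None of the 20 genes of this list was called by the quasi-likelihood test, the exact test or limma-voom. DESeq2 called 1 higher, and 2 were higher at an unadjusted p under 0.05. The median log2 fold change of the list was 0.04. Rars2, the arginine enzyme, had 16.1, 22.1 and 17.6 CPM in WT1 to WT3 and 31.4, 29.1 and 24.0 in KO1 to KO3, without overlap (log2 fold change 0.60, SE 0.18, adjusted p = 0.079). Iars2, the isoleucine enzyme, had a log2 fold change of 0.25 (SE 0.13, adjusted p = 0.223), against the 2.61 of its cytosolic counterpart. Without KO3, 2 of the 20 genes of the mitochondrial list were called higher, a smaller share than the 16.9% of all genes. Whether the mitochondrial and cytosolic sets differ was not tested.

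The unfolded protein response can also feed into ATF4. Of 15 genes of its other branches, 1 rose and 0 fell, beside 4.38% and 2.09% of all genes. The riser was Hspa5, the chaperone BiP, with 245, 311 and 302 CPM in WT1 to WT3 and 471, 478 and 464 in KO1 to KO3, a tight group above all WT libraries (log2 fold change 0.72, SE 0.14, adjusted p = 0.0257). Hsp90b1, another chaperone of the endoplasmic reticulum, had a log2 fold change of 0.98 (SE 0.26, adjusted p = 0.0648), with KO3 at 122 CPM, near WT3 at 117. Of the 15, 13 had positive log2 fold changes, and the median was 0.15. At an unadjusted p under 0.05, 4 were higher and 0 lower, beside 13.5% and 16% of all genes. The exact test and DESeq2 each called 2 higher and 0 lower (7.76% and 8.93% of all genes were higher, 7.15% and 5.31% lower). By limma-voom 1 was higher and 0 lower (4.08% and 2.21%). Without KO3, 3 of the 15 were called higher, beside 16.9% of all genes. Of 10 paralogues of the 36 genes, none was called by the quasi-likelihood test, DESeq2 or limma-voom, the exact test called 1 lower, and 1 was lower at an unadjusted p under 0.05 (Trib2, log2 fold change -0.74, SE 0.24, adjusted p = 0.0938).

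Markers of cell types and states differed between the same libraries. In the fit with all libraries 4.38% of all genes rose and 2.09% fell. All 20 of 20 interferon-stimulated genes rose, and their summed level was 134 to 158 CPM in WT and 440 to 1038 in the libraries labelled KO. The exact test and DESeq2 also called 20 higher, limma-voom called 19, and the fit without KO3 called 18. Wars, a synthetase known to respond to interferon, overlapped between the groups, and a link of the synthetase levels to interferon was not tested. Of 10 mitosis genes 2 rose (sum 263 to 446 CPM in WT and 529 to 816 in the libraries labelled KO). Of 10 suprabasal keratinocyte markers 1 rose (sum 21348 to 26013 against 32462 to 49289 CPM). Of 8 wound keratinocyte markers 2 rose (3931 to 5700 against 6099 to 9653 CPM). Of 8 basal markers 1 rose (11264 to 12147 against 11530 to 12805 CPM), but the list was split, with 4 positive and 4 negative fold changes. All libraries labelled KO lay above WT in 3 basal markers and below WT in 2. At an unadjusted p under 0.05, 2 basal markers were higher and 1 lower. Of 10 skeletal muscle markers 2 fell and all 10 had negative fold changes (sum 9016 to 11729 against 3900 to 7614 CPM). None of the 8 dermal fibroblast markers was called (6520 to 8559 against 2838 to 6869 CPM), nor were the 8 immune cell markers tested (577 to 713 against 491 to 981 CPM). By unadjusted p under 0.05, 1 fibroblast marker was lower and 1 immune marker higher, the exact test called 1 fibroblast marker lower, and DESeq2 called 1 immune marker higher. The exact test and DESeq2 each called 6 mitosis genes, 5 suprabasal markers and 1 basal marker higher. They called 5 and 4 wound markers higher and 8 and 6 muscle markers lower. These tools called 7.76% and 8.93% of all genes higher and 7.15% and 5.31% lower. By limma-voom, 2 mitosis genes and 2 suprabasal, 3 wound and 1 basal markers were higher, and 3 muscle markers lower (4.08% and 2.21% of all genes). Without KO3, 6 mitosis genes, 5 suprabasal and 5 wound keratinocyte markers were called higher, and 9 muscle and 4 fibroblast markers lower, beside 16.9% and 16.2% of all genes. No tested marker of these cell types was at 0 in any library. The immune marker Cd8a did not reach 1 CPM in 3 libraries and was not tested. KO3 was the library labelled KO nearest to WT in the muscle, suprabasal, wound, fibroblast and mitosis sums, and it was the lowest of the 3 in 9 of the 20 synthetases (45% of them, against 41.8% of all genes) and in 2 of the 16 response genes. The part of these differences in the synthetase levels was not tested.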

How the data were processed

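Top lip RNA of 3 WT and 3 Gtf2ird1-KO mice was sequenced as paired-end mRNA libraries. Reads were aligned by the authors to GRCm38 using TopHat2 2.0.8 and Bowtie2 2.1.0 (versions as in the submitters' processing notes). The authors deposited whole-number counts per gene symbol, made by HTSeq from uniquely assigned reads and not normalized. The strand setting is not given in the sources used here. Samples were grouped by their labels, all 6 columns were used and 0 were left out.

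The fit kept genes that reached 1 CPM in 3 or more libraries. Libraries were scaled by TMM, and the genotypes were compared with edgeR 4.0.16 (glmQLFit with legacy=FALSE, glmQLFTest) in R 4.3.3, with Benjamini-Hochberg adjustment over all genes tested and a threshold of 0.05. The quasi-likelihood test took the place of the exact test that the study's methods name, which was an alternative. Values are TMM-scaled CPM. RPKM used the summed exon length of a GENCODE annotation of GRCm38. Each mouse was 1 replicate, so p-values measure the spread between mice. An exact permutation test of 3 against 3 cannot go below 0.1 and was not used. Total counts were at least 20164081 per library, and the lowest count of any of the 36 genes was 49.

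Each of the 6 libraries was omitted once, and 9 other alternatives were tried, namely the exact test, DESeq2 1.42.0, limma-voom (limma 3.58.1), DESeq2's size factors, library size alone, no filter, at least 10 counts in every library, an adjusted p under 0.1 and a replicate block. The length of the longest protein-coding transcript, for the order of levels, was added after the data had been seen. Each of the 36 genes was named, with Gtf2ird1 as the targeted gene. At most the 4 genes with the lowest p of each other pathway list were named too, and the 4 eIF2 kinases. Cell type, interferon and mitosis lists were given by counts and sums. The members and lists were chosen with earlier results of these data known. The fit was tested on simulated data. Promoters were from RefSeq (GRCm38.p6), and figures were drawn with matplotlib 3.10.9 in Python 3.11.15. No set test was run.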

Additional observations from a re-analysis of the deposited data

How the results depend on the processing

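The number of cytosolic synthetases called higher was 6 with all libraries. It was 10 by edgeR's exact test, 10 by DESeq2, 10 at an adjusted p under 0.1, 3 with library size alone and between 1 and 10 over the 6 fits that omitted a library. It stayed within 1.5 times of 6 with limma-voom, DESeq2's size factors, no filter and the filter of 10 counts. No setting called a synthetase lower. The median log2 fold change of the synthetases ran from 0.39 to 0.57 with a library left out. The response genes called higher were 2, and between 1 and 2 with a library left out. The response genes called lower were 0, 1 by the exact test, 1 by DESeq2 and between 0 and 1 with a library left out. The correlations of same-numbered deviations were -0.19, 0.29 and 0.31, and those of differently numbered ones ran from -0.50 to 0.41. With so few libraries they do not settle whether the replicate numbers pair the samples. With a replicate block 2 synthetases and 2 response genes were called higher.

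Among single genes, 24 values changed sign, all of genes that were not called and all but 1 with a library left out. The exception was Aldh18a1, at 0.0068 with no filter. With a library left out, log2 fold changes ran from -0.0057 to 0.24 for Aars, -0.0085 to 0.18 for Farsa, -0.18 to 0.081 for Vars, -0.15 to 0.18 for Wars, -0.11 to 0.059 for Atf4, -0.16 to 0.067 for Trib3, -0.21 to 0.022 for Ddit4, -0.14 to 0.018 for Sesn2, -0.11 to 0.28 for Phgdh, -0.14 to 0.17 for Psph, -0.038 to 0.20 for Shmt2, -0.17 to 0.11 for Aldh18a1, -0.023 to 0.24 for Cebpb and -0.16 to 0.086 for Eif4ebp1. The cause of these changes was not tested beyond the loss of a library. Counting error was largest for Pycr1, whose lowest count was 49, and each genotype had 3 mice.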

Other observations

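One mitochondrial synthetase, Lars2, the leucine enzyme, had counts listed under its symbol far above the rest and a wide spread between mice of the same group. It had 9986, 4668 and 16505 CPM in WT1 to WT3 and 8235, 275 and 11169 CPM in KO1 to KO3. The groups overlapped, and KO2 was the lowest library by a wide margin (log2 fold change -0.66, SE 1.003, adjusted p = 0.682 in edgeR's quasi-likelihood test). The summed level of the 20 genes of the mitochondrial list was 5050 to 16854 CPM in WT and 664 to 11571 CPM in the libraries labelled KO. That sum was thus mostly Lars2 in every library but KO2, and does not describe the other genes of the list. Whether all reads counted for Lars2 came from that gene was not tested, so these values are the counts listed under its symbol and not a measured level of its messenger.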
